A study of Mus musculus with 90 samples.

Results

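The Vmn2r genes, which encode the type 2 vomeronasal receptors, were taken as all protein_coding genes of the GENCODE vM1 annotation of the mouse genome (build mm9) whose name begins with Vmn2r. There were 125 of them among 22367 protein_coding genes on chromosomes 1 to 19, X and Y, and each was examined as its body with 10 kb on either side, called its window here. Windows had a median length of 42.4 kb (22.8 to 174 kb) and merged into 114 stretches with 5.53 Mb in all. The names of 8 of these genes mark them as pseudogenes although the annotation types them protein_coding, and another 55 genes with Vmn2r names but other types were not members.

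The study asked where the maintenance methyltransferase Dnmt1 adds methylation to unmethylated DNA in mouse embryonic stem cells (ESCs), and mapped the heterochromatin mark H3K9me3, the corepressor Trim28 and the methylation cofactor Uhrf1 in 3 ESC lines. WT cells were the V6.5 line. TKOL cells, of the J1 line, lack Dnmt3a and Dnmt3b and carry an shRNA against Dnmt1, so that they have very little methylation, and DKO0 cells were derived from them by removing the shRNA with Cre and sorting GFP-negative cells, so that Dnmt1 is back while Dnmt3a and Dnmt3b are still missing. Each of the 3 marks had 2 replicate peak lists per line, and TKOL and DKO0 also had a list called on the pooled reads of both replicates, which gave 24 lists. H3K9me3 and Trim28 came from ChIP-seq, and Uhrf1 from ChIPmentation (ChIP with tagging by transposase) of a FLAG tag in homozygous clones of each line. TKOL cells are clonal, V6.5 and J1 are different strains, and the labels give no passage for the DKO0 cells of these lists, while the names of the deposited lists give passage 5 for H3K9me3 and Trim28 and passage 3 for Uhrf1. The lists hold no expression values, so the cell identity was not checked here, and they give no read counts, so the depth behind each peak is unknown.

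Type 2 vomeronasal receptors are G protein-coupled receptors with a large extracellular domain, displayed by sensory neurons of the basal layer of the vomeronasal organ, where they detect peptides and proteins such as exocrine gland-secreting peptides and major urinary proteins. Their genes lie in clusters of recent duplicates. H3K9me3 marks constitutive heterochromatin, Trim28 is brought to DNA by KRAB zinc finger proteins and in turn brings the methyltransferase Setdb1 that deposits H3K9me3, and Uhrf1 binds hemimethylated CpGs and H3K9me3 and recruits Dnmt1.

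The 125 genes fell into 19 clusters when neighbours within 1 Mb were joined, 5 of them single genes and the largest, Vmn2r90 to Vmn2r110 on chromosome 17, with 22 genes. Chromosome 7 held 51 genes and chromosome 17 held 32, and the others lay on chromosomes 3, 5, 6, 10, 13, 14 and X. Much of their sequence is repeated in the genome: 52.6% of the 31-base words in Vmn2r windows occur once in mm9, against 87.7% in the windows of other protein_coding genes and 83.2% in the genome. Per gene the share ranged from 0% in Vmn2r46 to 93.2%, with a median of 58.4%. Words found 10 or more times made up 21.8%, against 7.96% and 11.5%. How much of the repeated sequence comes from copies of receptor genes was not tested. CpGs were sparse. Vmn2r windows held a mean of 4.81 CpGs per kb (2.79 to 11.8), while other protein_coding genes with windows within 10% of the same length held 12.4 and the genome 8.34.

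The sequences just before the gene starts show how close the copies are. RefSeq promoters (build GRCm38.p6, 250 bases before to 50 after the start) could be matched by name to 111 of the 125 genes, and 65 pairs among 38 genes were identical at 90% or more of the 300 positions. Vmn2r31 is printed as the start region with the highest fold enrichment of any peak at a Vmn2r start, followed by Vmn2r44 and Vmn2r38, which also had a peak there. Capitals in Vmn2r44 and Vmn2r38 mark the bases that differ from Vmn2r31, 2 and 3 of them, and Vmn2r33 was identical to Vmn2r31 over all 300 bases. Names alone link the builds, and the mm9 annotation puts Vmn2r44 and Vmn2r38 on the other strand.
Vmn2r31 (GRCm38.p6, chr7:7399578-7399877, minus strand): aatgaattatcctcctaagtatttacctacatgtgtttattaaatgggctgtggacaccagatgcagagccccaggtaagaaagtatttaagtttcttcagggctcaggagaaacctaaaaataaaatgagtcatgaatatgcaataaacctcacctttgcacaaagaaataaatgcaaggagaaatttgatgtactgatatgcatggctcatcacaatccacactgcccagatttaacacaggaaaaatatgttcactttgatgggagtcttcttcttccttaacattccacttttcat
Vmn2r44 (GRCm38.p6, chr7:8383189-8383488, minus strand): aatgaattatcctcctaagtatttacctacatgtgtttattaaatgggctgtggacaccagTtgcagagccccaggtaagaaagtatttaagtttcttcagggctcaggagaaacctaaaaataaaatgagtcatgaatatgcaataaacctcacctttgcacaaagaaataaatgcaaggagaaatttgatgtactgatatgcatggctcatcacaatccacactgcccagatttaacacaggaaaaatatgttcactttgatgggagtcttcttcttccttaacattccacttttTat
Vmn2r38 (GRCm38.p6, chr7:9097716-9098015, minus strand): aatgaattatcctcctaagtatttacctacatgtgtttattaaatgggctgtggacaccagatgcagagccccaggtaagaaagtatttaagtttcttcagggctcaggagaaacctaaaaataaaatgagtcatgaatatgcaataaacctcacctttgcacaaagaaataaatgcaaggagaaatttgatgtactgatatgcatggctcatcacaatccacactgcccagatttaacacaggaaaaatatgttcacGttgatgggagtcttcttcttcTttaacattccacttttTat

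Vmn2r promoters were poor in CG dinucleotides. The median was 1 CG in 300 bases over 118 Vmn2r promoters and 7 over all 32851 promoters in the table, and 34 Vmn2r promoters (28.8%) had none, against 5.43% of all promoters. At least 10 CGs were found in 1 Vmn2r promoter (0.847%), that of Vmn2r29 with 23, and in 43.5% of all promoters. The letters TATAAA, searched on both strands, occurred in 27 Vmn2r promoters (22.9%) and in 13.6% of all. The promoter of Vmn2r88 is shown because its start carried H3K9me3 peaks in both pooled lists on sequence that is largely unique, and that of Vmn2r116 because it encodes the receptor of the male tear peptide ESP1. Both hold no CG, which would have been in capitals.
Vmn2r88 (GRCm38.p6, chr14:51410751-51411050, plus strand): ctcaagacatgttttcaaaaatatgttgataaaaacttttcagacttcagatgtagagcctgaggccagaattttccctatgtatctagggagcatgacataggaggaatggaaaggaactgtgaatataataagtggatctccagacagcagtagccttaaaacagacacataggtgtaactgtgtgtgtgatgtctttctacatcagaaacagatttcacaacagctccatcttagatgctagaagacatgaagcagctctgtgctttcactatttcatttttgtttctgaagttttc
Vmn2r116 (GRCm38.p6, chr17:23384553-23384852, plus strand): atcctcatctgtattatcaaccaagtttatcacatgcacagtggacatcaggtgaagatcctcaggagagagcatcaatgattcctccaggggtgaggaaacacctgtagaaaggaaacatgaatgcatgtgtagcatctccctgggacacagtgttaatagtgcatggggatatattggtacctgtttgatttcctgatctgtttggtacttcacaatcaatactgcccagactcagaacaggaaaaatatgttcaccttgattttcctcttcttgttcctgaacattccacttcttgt

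Vmn2r genes lay near H3K9me3 more often than other genes of their length in all 8 lists. In WT, 47 of the 125 genes (37.6%) had a peak in replicate 1 and 40 (32%) in replicate 2. In TKOL the counts were 76 (60.8%) and 47 (37.6%), and in DKO0 87 (69.6%) and 41 (32.8%). Replicate 1 thus held more marked genes than replicate 2 in each line, and the replicate 1 lists were also the longer ones. They had 55126 and 63579 peaks in TKOL and DKO0 against 32702 and 37315, and 29440 against 25953 in WT. Against the mean over all other protein_coding genes with windows within 10% of the same length, at least 432 genes per Vmn2r gene and called genes of like length below, the share was 2.01 and 2.22 times as high in the WT replicates, 2.12 and 1.90 times in TKOL, and 1.86 and 1.49 times in DKO0.

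In the pooled lists 96 Vmn2r genes (76.8%, 95% Wilson interval 68.7 to 83.3%) had an H3K9me3 peak in TKOL and 95 (76%, 67.8 to 82.6%) in DKO0. Over all 22367 genes the shares were 39.3% and 39.8%, and over genes of like length 34.0% and 35.4%, so that the Vmn2r share was 2.26 and 2.15 times the latter. In WT, 26 genes had a peak in both replicate lists, 20.8% against 14.3% of all genes. The intervals cover counting over genes only, and neighbouring genes are not independent.

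**Figure D1:**
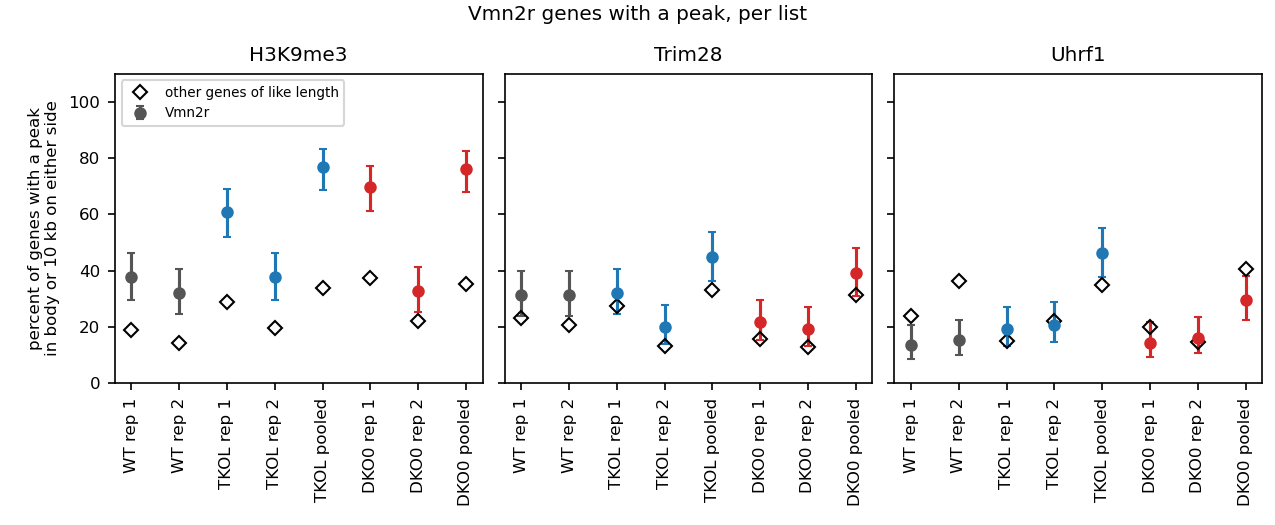
Percent of the 125 Vmn2r genes with a peak in the body or 10 kb on either side (y axis), per peak list (x axis), for H3K9me3, Trim28 and Uhrf1. Filled circles are Vmn2r genes with 95% Wilson intervals, open diamonds are the mean over other protein_coding genes of like length; for H3K9me3 the circles lie above the diamonds in all 8 lists, while for Uhrf1 in WT they lie below, at 13.6% and 15.2% against 23.9% and 36.5%.

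By covered bases the contrast with other genes was of like size, and that with the genome was smaller. Pooled H3K9me3 peaks covered 3.78% of the Vmn2r windows in TKOL and 4.90% in DKO0, while they covered 2.93% and 3.33% of the genome. The mean over genes of like length was 1.86% and 2.22%, and the Vmn2r share was thus 2.03 and 2.21 times as high. The replicate lists gave 0.336% and 0.273% in WT, 0.850% and 0.352% in TKOL, and 1.42% and 0.398% in DKO0, 0.903 to 1.30 times the share of the genome. Peaks in Vmn2r windows were short, with a median of 233 bases in TKOL and 297 in DKO0 (297 and 377 elsewhere), and the longest reached 7.08 and 9.92 kb.

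H3K9me3 was far from even among the genes. In all 8 lists 17 genes had a peak, Vmn2r7, Vmn2r35, Vmn2r38, Vmn2r46, Vmn2r60 and Vmn2r91 among them, and 14 had none in any, among them Vmn2r2 and Vmn2r6. Neither pooled list had a peak at 20 genes. Such counts were not made for other genes, so they do not show whether Vmn2r genes are more uneven than others. The order of the genes was much the same in both lines: the Spearman correlation of the covered share per gene between the pooled TKOL and DKO0 lists was 0.896 over 125 genes, as a description, since neighbouring genes share peaks and copies. The covered share was higher in DKO0 for 74 genes and lower for 31.

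Trim28 peaks were found at a somewhat larger share of Vmn2r genes than of genes of like length in all 8 lists, by a small margin in several. They were found at 39 genes (31.2%) in each WT replicate, at 40 (32%) and 25 (20%) in the TKOL replicates, and at 27 (21.6%) and 24 (19.2%) in the DKO0 replicates, which was 1.16 to 1.52 times the share among genes of like length. The pooled lists marked 56 genes (44.8%) in TKOL and 49 (39.2%) in DKO0, against 36.7% and 35.2% of all genes, and in WT 21 genes (16.8%) had a peak in both replicates, against 12.7% of all. The covered share was 1.22% in TKOL and 0.981% in DKO0, a little under the 1.28% and 1.12% of the genome but 1.85 and 2.07 times the 0.657% and 0.474% of genes of like length. Trim28 was uneven too: 9 genes had it in all 8 lists, Vmn2r13, Vmn2r35, Vmn2r38, Vmn2r46, Vmn2r57, Vmn2r58, Vmn2r60, Vmn2r82 and Vmn2r87, and 40 in none. For other genes these counts were not made.

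Uhrf1 showed another pattern, with fewer Vmn2r genes than other genes marked in WT. Peaks were found at 17 genes (13.6%) and 19 genes (15.2%) in the WT replicates, 0.568 and 0.417 times the share among genes of like length. In TKOL they were found at 24 (19.2%) and 26 genes (20.8%), 1.27 and 0.944 times that share, and in DKO0 at 18 (14.4%) and 20 (16%), 0.727 and 1.10 times. In both WT replicates 10 genes (8%) had a peak, against 21.7% of all genes. The pooled lists marked 58 genes (46.4%) in TKOL, against 38.0% of all, and 37 (29.6%) in DKO0, against 41.2%. Beside genes of like length these were 1.33 and 0.728 times as many, and the latter turned to 1.15 times when a peak in both DKO0 replicates was asked for (10 genes). Vmn2r91 alone had a Uhrf1 peak in all 8 lists, and 48 genes had none in any. Other genes were not counted in this way.

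Marks met at fewer genes than they touched singly. All 3 marks had a pooled peak at 30 genes (24%, against 15.7% of all genes) in TKOL and at 16 (12.8%, against 14.5%) in DKO0. No mark had a pooled peak at 21 genes in TKOL and at 20 in DKO0, and 10 genes were without a peak in all 24 lists: Vmn2r28, Vmn2r65, Vmn2r71, Vmn2r74, Vmn2r107, Vmn2r108, Vmn2r110, Vmn2r-ps128, Vmn2r113 and Vmn2r120. The counts of genes without a peak have no share over all genes beside them. Of the 436 H3K9me3 peaks in Vmn2r windows in TKOL 14.9% overlapped a Trim28 peak, against 29.4% of those elsewhere, and in DKO0 13.7% of 437 did, against 27.0%. Seen from Trim28 the shares were closer, with 65.0% of its 117 peaks in Vmn2r windows over H3K9me3 in TKOL (69.0% elsewhere) and 62.4% of 125 in DKO0 (59.4% elsewhere).

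**Figure D2:**
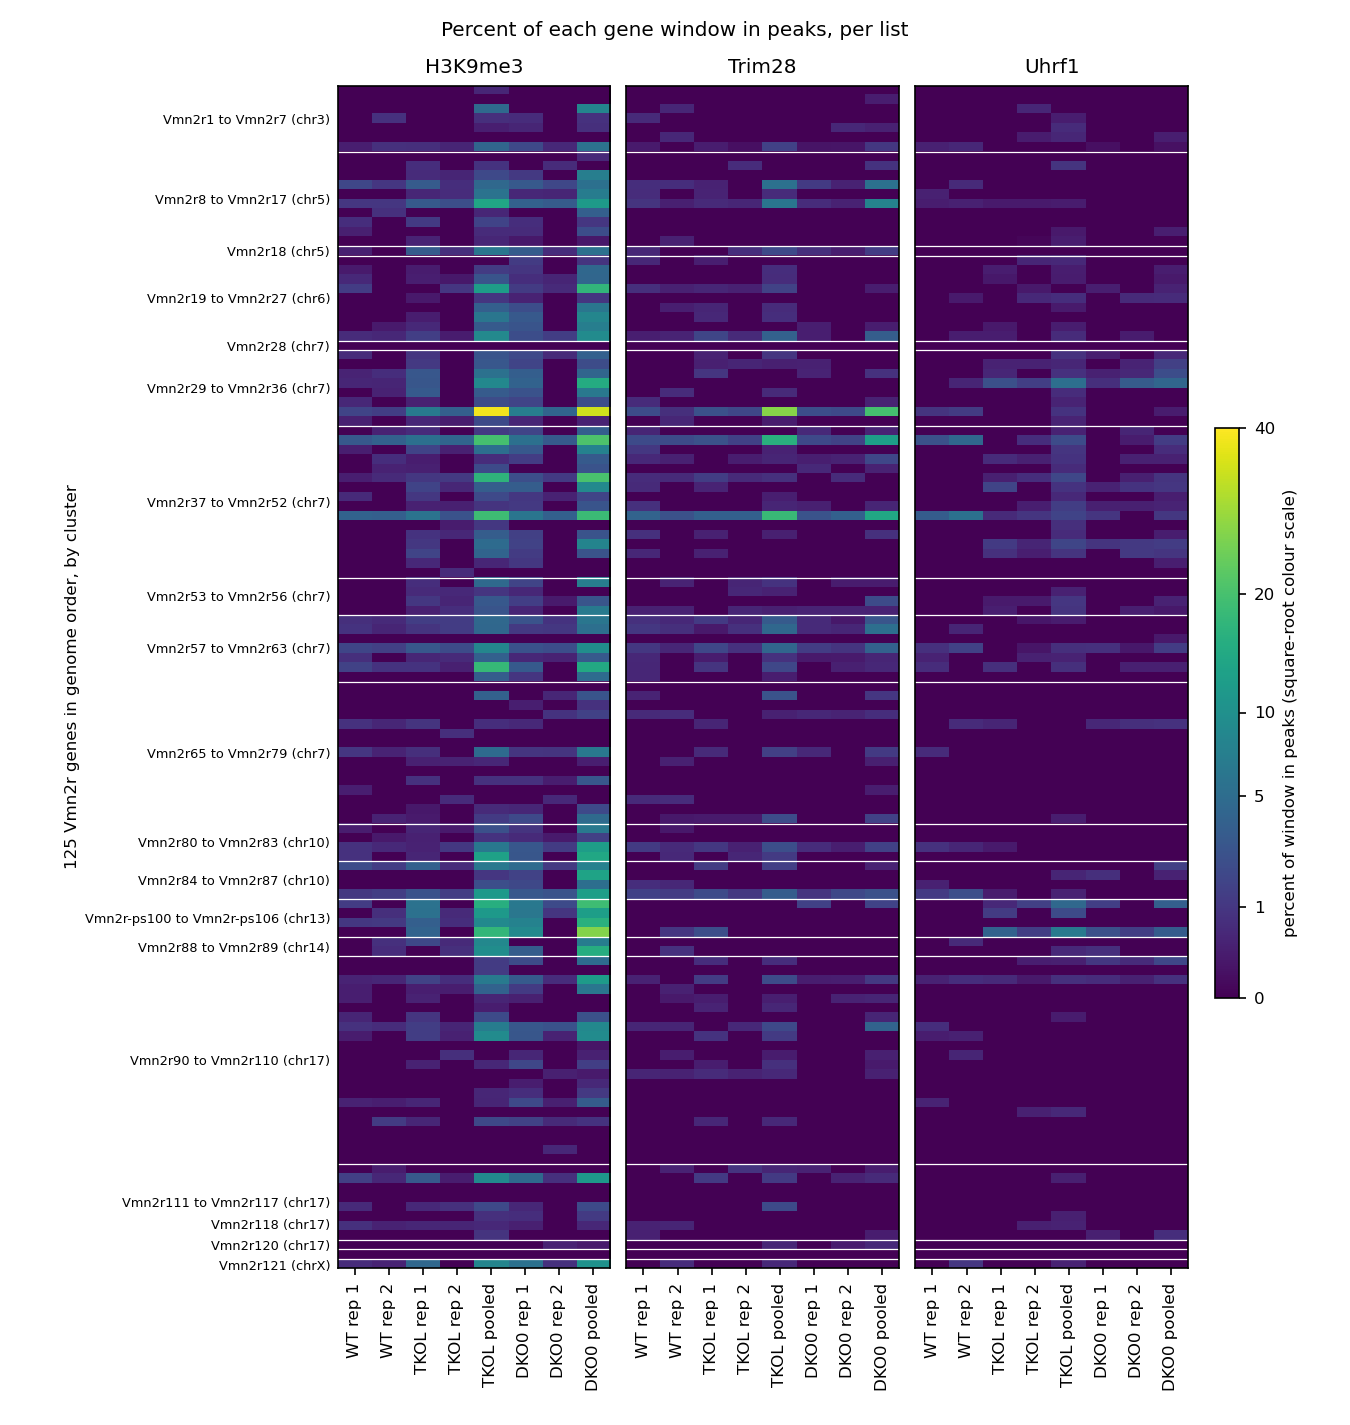
Percent of each Vmn2r gene window in peaks (colour, square-root scale, 0 to 40%), with the 125 genes in genome order as rows, white lines between the 19 clusters, and the 8 peak lists of each mark as columns; the last 3 labels name the last 3 rows. The brightest rows are Vmn2r35, Vmn2r38 and Vmn2r46 on chromosome 7, at 38.7%, 19.9% and 19.1% for H3K9me3 in the pooled TKOL list, and Vmn2r-ps106 on chromosome 13 at 26.5% in the pooled DKO0 list.

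The lines were compared over the 2 replicate lists of each, by exact two-sided permutation tests of the difference of means. With 2 lists against 2 the smallest possible p is 0.333, so no difference could pass a threshold of 0.05, and all 12 adjusted p-values were 1 (Benjamini-Hochberg). For H3K9me3 the share of genes with a peak was 2 percentage points higher in DKO0 than in TKOL (exact p = 1, n = 2 each) and the covered share 0.310 points higher (p = 0.667 by the exact permutation test), with lists that overlapped. Both replicates agreed on the direction for the covered share but not for the genes, which differed by 8.8 points in replicate 1 and by -4.8 in replicate 2. WT lists covered 0.297 points less than TKOL lists (p = 0.333 by the exact permutation test) and did not overlap them, but the strains differ as well and the 2 effects cannot be told apart.

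For Trim28 the lists of WT and of DKO0 each overlapped those of TKOL in both measures, while those of WT lay above those of DKO0, a pair for which no test was run. The share of genes was 5.6 points lower in DKO0 than in TKOL (exact permutation p = 0.667) and 5.2 points higher in WT (exact permutation p = 1). For Uhrf1 the share of genes was 4.8 points lower in DKO0 than in TKOL and 5.6 points lower in WT, in both cases without overlap (exact permutation p = 0.333). The covered share in WT was however 0.0595 points above TKOL (exact permutation p = 0.333), so that fewer genes held more covered bases in WT. The WT lists were also longer, with 30134 and 49156 peaks against 17444 and 14815 in TKOL. Relative to the share of the genome covered, WT was lower, at 0.444 and 0.365 times against 0.814 and 0.812 times in TKOL. With equal peak numbers per list the difference in covered share was 0.0347 points. Nothing in the labels says that replicates came from separate cultures, and these p-values measure only the spread between lists, which may be technical.

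How far each gene's sequence is unique moved with these results. The 46 genes with under 50% unique words (27 on chromosome 7) and the 79 genes with at least 50% (24 on chromosome 7) differed most for Uhrf1 in the pooled lists, but not in WT. The pooled TKOL list marked 35 of the 46 (76.1%), 2.32 times the share of genes of like length, and 23 of the 79 (29.1%), 0.809 times. In DKO0 it was 27 of 46 (58.7%), 1.50 times, and 10 of 79 (12.7%), 0.305 times. For H3K9me3 both sets stood above other genes, with 42 of 46 (91.3%, 2.77 times) and 54 of 79 (68.4%, 1.98 times) in TKOL, and 39 (84.8%, 2.46 times) and 56 (70.9%, 1.97 times) in DKO0. For Trim28 the ratios were 1.56 and 1.23 in TKOL and 1.51 and 1.10 in DKO0. In WT replicate 1 H3K9me3 marked 52.2% of the less unique and 29.1% of the more unique genes, Trim28 43.5% and 24.1%, and Uhrf1 15.2% and 12.7%, and in replicate 2 the shares were 39.1% and 27.8%, 32.6% and 30.4%, and 19.6% and 12.7%. Uhrf1 thus lay under the share of genes of like length in both sets in WT, at 0.337 to 0.684 times. The windows of the less unique set were covered by H3K9me3 to a mean of 6.33% in TKOL and 7.56% in DKO0, those of the more unique set to 2.34% and 3.47%. Over the 125 genes the Spearman correlation of uniqueness with the mean pooled covered share was -0.482 for H3K9me3, -0.307 for Trim28 and -0.606 for Uhrf1, given as a description, since near-identical copies share reads. Reads of such copies cannot be assigned to a single gene with certainty, and the part of sequence uniqueness in the results was not tested.

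**Figure D3:**
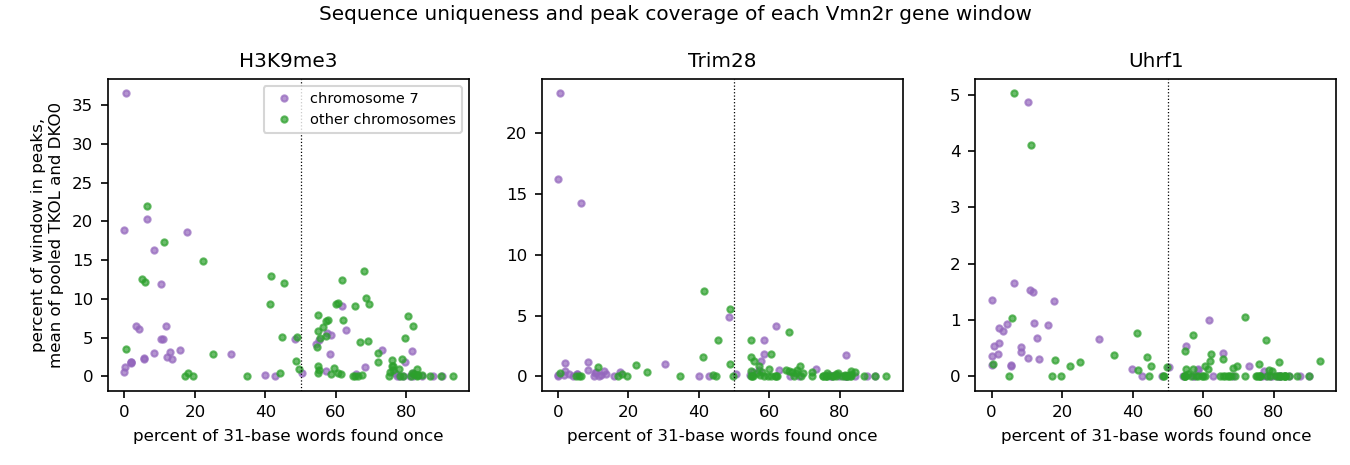
Percent of each Vmn2r gene window in peaks, as the mean of the pooled TKOL and DKO0 lists (y axis), against the percent of its 31-base words found once in mm9 (x axis), for the 125 genes, with chromosome 7 in purple and other chromosomes in green; the dotted line is at 50%. The highest values of all 3 marks lie left of the line, and genes on the right still reach 13.6% for H3K9me3 but at most 1.05% for Uhrf1.

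Coverage varied widely between clusters. H3K9me3 was densest at the 4 genes Vmn2r-ps100 to Vmn2r-ps106 on chromosome 13, where pooled peaks covered 13.5% of the windows in TKOL and 18.6% in DKO0. The replicates gave 0.581% and 0.457% there in WT, 4.74% and 0.318% in TKOL, and 7.35% and 0.741% in DKO0, so that the height rested on replicate 1 of TKOL and DKO0 and on the pooled lists. Vmn2r29 to Vmn2r36 on chromosome 7 had 9.51% and 9.49%, and there too replicate 1 was the higher in TKOL (2.47% against 0.629%) and DKO0 (3.01% against 0.749%). Unique words made up a median of 6.19% and 10.32% of the windows of these clusters. Pooled coverage of like size was also found on more unique sequence: Vmn2r88 and Vmn2r89 on chromosome 14 (median 71.2% unique) had 9.11% and 11.3%, and Vmn2r121, the only member on the X chromosome (69.5% unique), had 8.28% and 10.46%. These heights too rested on the pooled lists. The replicates gave 0.918% and 0.660% in TKOL and 1.78% and 0% in DKO0 at Vmn2r88 and Vmn2r89. At Vmn2r121 they gave 4.46% and 0% in TKOL and 5.61% and 0.756% in DKO0.

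The windows of the largest cluster were among the least covered. Those of Vmn2r90 to Vmn2r110 had 1.58% in TKOL and 2.36% in DKO0. Those of Vmn2r65 to Vmn2r79 on chromosome 7 had 0.852% and 1.65% over 15 genes, and both clusters were thus below the 2.93% and 3.33% of the genome. This held for the windows only. Over the whole spans, which include the sequence between windows, Vmn2r90 to Vmn2r110 had 2.86% and 4.35%. The span of Vmn2r65 to Vmn2r79 had 3.96% and 4.62%, above the genome in both lines. The windows of these clusters were also the most unique of the large clusters, with medians of 76.3% and 79.0%. In windows, Trim28 was highest at Vmn2r29 to Vmn2r36, at 4.62% and 3.40%. It covered none of the windows of Vmn2r-ps100 to Vmn2r-ps106 in pooled TKOL (0.570% in replicate 1) and 0.406% in DKO0. Those windows make up 91.5 kb of a span of 0.762 Mb. Over the whole span the order turned, with Trim28 at 3.27% and 2.92% there, against 2.71% and 1.76% for Vmn2r29 to Vmn2r36. The same chromosome 13 cluster had the highest Uhrf1 coverage, 3.31% in TKOL and 1.77% in DKO0, whereas WT had no Uhrf1 peak there in either replicate. Over the 14 clusters of at least 2 genes the correlation of median uniqueness with coverage was -0.284 for H3K9me3, -0.244 for Trim28 and -0.648 for Uhrf1 (Spearman, a description).

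**Figure D4:**
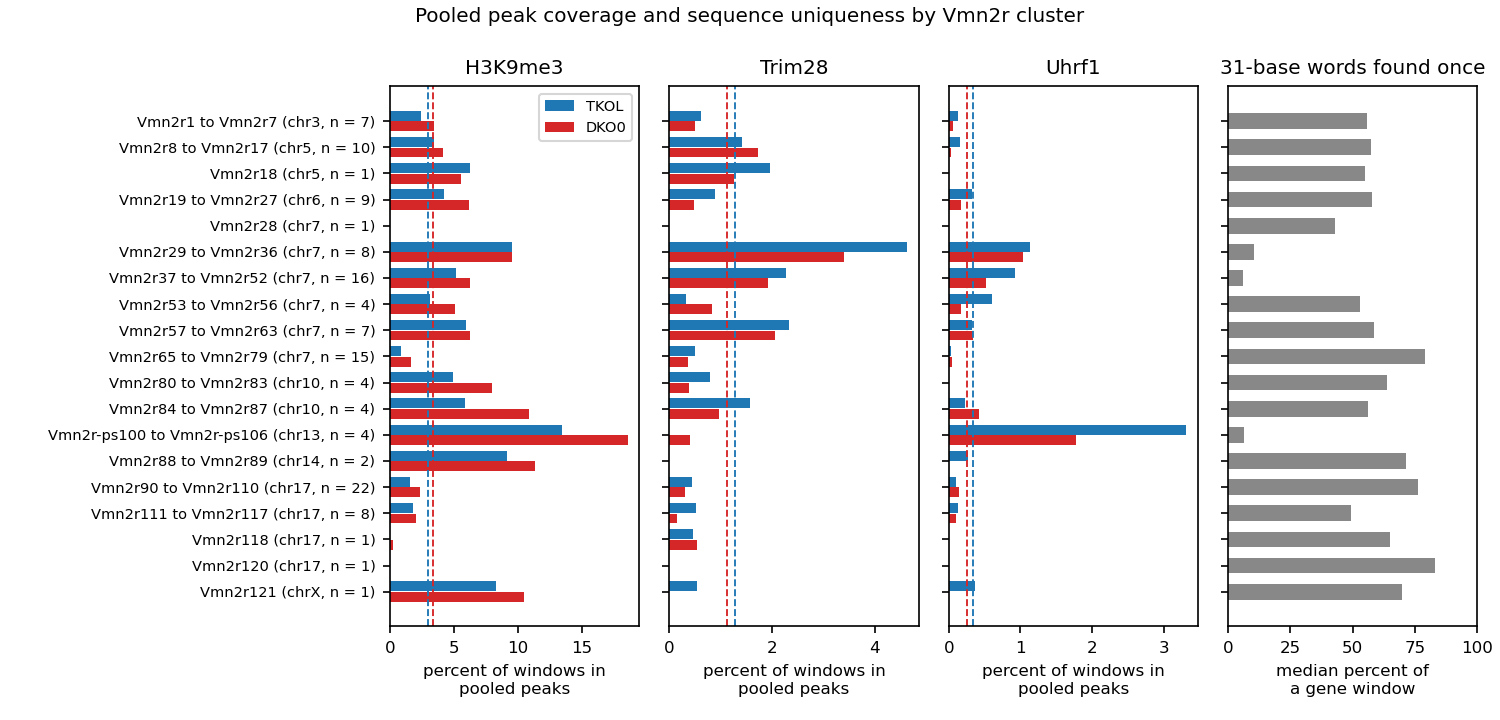
Percent of the windows of each Vmn2r cluster in pooled peaks (x axes of the left 3 panels, different scales) in TKOL (blue) and DKO0 (red), with the genome share as dashed lines in the same colours, and the median percent of 31-base words found once (right panel); n is the number of genes. H3K9me3 peaks at 13.5% and 18.6% in the chromosome 13 cluster, while the clusters of 15 and 22 genes stay below the genome lines.

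At single genes, Vmn2r35 (ENSMUSG00000090518.1, chr7:7738862-7772578, minus strand) was the most covered. Pooled H3K9me3 peaks took up 38.7% of its window in TKOL and 34.4% in DKO0, and Trim28 peaks 26.7% and 19.9%. In the replicates H3K9me3 covered 1.68% and 1.38% in WT, 6.77% and 3.64% in TKOL, and 7.36% and 4.19% in DKO0, and Trim28 covered 2.13% and 0.713%, 2.44% and 1.80%, and 2.34% and 1.94%. TKOL and DKO0 overlapped in both marks, and the WT lists lay below them for H3K9me3. Uhrf1 was found at Vmn2r35 in both WT replicates (0.905% and 1.23%) but in no replicate of TKOL or DKO0, and in the pooled lists at 0.845% and 0.223%. Its window was also the richest in CpGs (11.8 per kb) and had 0.57% unique words.

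Vmn2r46 (ENSMUSG00000090342.1, chr7:10339985-10355920, minus strand), Vmn2r38 (ENSMUSG00000078806.3, chr7:9079916-9103001, plus strand) and Vmn2r60 (ENSMUSG00000090619.1, chr7:49371841-49451146, plus strand) had the highest fold enrichments. Vmn2r46 carried H3K9me3 in all lists, at 3.97% and 3.66% of the window in WT, 5.83% and 2.52% in TKOL and 5.99% and 3.75% in DKO0, with pooled values of 19.1% and 18.6% and a highest fold enrichment of 13.4 and 15.9. Vmn2r38 had 3.01% and 3.89%, 5.45% and 4.29%, and 5.49% and 3.22%, with pooled values of 19.9% and 20.8% and folds of 12.3 and 11.9. The 3 lines overlapped at Vmn2r46, whereas at Vmn2r38 the WT lists lay just under those of TKOL. Trim28 reached folds of 8.58 and 18.4 at Vmn2r46 and 6.53 and 20.8 at Vmn2r38, the last being the highest in any Vmn2r window. Uhrf1 was higher in WT than in the other lines at both: 3.42% and 5.45% of the Vmn2r46 window in WT against at most 0.963% in a replicate of TKOL or DKO0, and 2.48% and 4.44% of that of Vmn2r38 against at most 0.706%. None of the words in the Vmn2r46 window and 6.4% of those at Vmn2r38 were unique. Vmn2r60 reached folds of 13.5 and 11.7 for H3K9me3 and 8.58 and 19.6 for Trim28 in a window that was 61.7% unique, with H3K9me3 over 1.72% and 1.41% in WT, 2.98% and 2.08% in TKOL, and 2.54% and 2.22% in DKO0. The uniqueness of the sequence under these peaks alone was not measured.

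Elsewhere the marks parted. Vmn2r44 on chromosome 7 had pooled H3K9me3 over 16.9% of its window in TKOL and 20.3% in DKO0 but Trim28 over 0.769% in TKOL and none in DKO0. At Vmn2r-ps106 on chromosome 13 the pooled H3K9me3 share was 17.6% and 26.5% and no pooled Trim28 peak was found. That gene had the most Uhrf1, 4.00% and 1.32% in the TKOL replicates, 2.40% and 1.32% in DKO0, 6.66% and 3.40% pooled, and none in WT, so that WT did not overlap the other lines. Vmn2r32 on chromosome 7, with Uhrf1 at 2.39% and 1.37% in TKOL, 0.722% and 3.31% in DKO0, and 0% and 0.430% in WT, had no Trim28 peak in any of its lists. Vmn2r11 and Vmn2r13 on chromosome 5, in contrast, had pooled Trim28 at 5.54% and 6.07% in TKOL and 5.56% and 8.01% in DKO0 on sequence that was 48.9% and 41.5% unique, and no Uhrf1 in the pooled DKO0 list.

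Among receptors with a known role, Vmn2r1 to Vmn2r7 on chromosome 3, whose products are co-expressed with other type 2 receptors in the same neurons, had pooled H3K9me3 peaks at 5 of 7 genes in TKOL and at 4 in DKO0, over 2.43% and 3.45% of their windows. Vmn2r1 had a single peak in all 24 lists, H3K9me3 in pooled TKOL over 0.463% of the window, and Vmn2r2 had a single one, Trim28 in pooled DKO0 over 0.263%. Vmn2r3 had H3K9me3 only in the pooled lists, at 4.68% and 8.23%. Vmn2r7, the longest gene of the family, had it in all 8 lists, from 0.273% to 5.69%. Vmn2r26, a receptor for peptides that bind class I MHC molecules, had 3.25% and 7.31% pooled and 0% or 0.210% in WT. Vmn2r116 had a single H3K9me3 peak in 7 of the 8 lists, at 0.753% and 0.364% in WT, 0.469% and 0.443% in TKOL, and 0.297% and 0% in DKO0. Trim28 and Uhrf1 covered at most 0.594% of the windows of Vmn2r1 to Vmn2r6, Vmn2r26 and Vmn2r116 in every list.

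Within the windows H3K9me3 lay away from the starts. Pooled peaks covered 4.30% of the 10 kb before the start in TKOL and 5.37% in DKO0, 3.44% and 4.12% of introns, 0.743% and 1.52% of exons, and 4.92% and 7.22% of the 10 kb after the end. Within 1 kb of the start it was 1.27% and 1.66%. Other protein_coding genes also had less at the start than before it, with 0.809% and 1.03% against 2.19% and 2.62%. Trim28 showed none at the starts in either pooled list, while at other genes the start was covered to 0.858% in TKOL and 0.265% in DKO0. Unique words made up 59.9% of the start regions, 42.3% of exons, 56.0% of introns, 49.7% of the stretch before and 51.1% of that after, so that the starts were the most unique section.

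**Figure D5:**
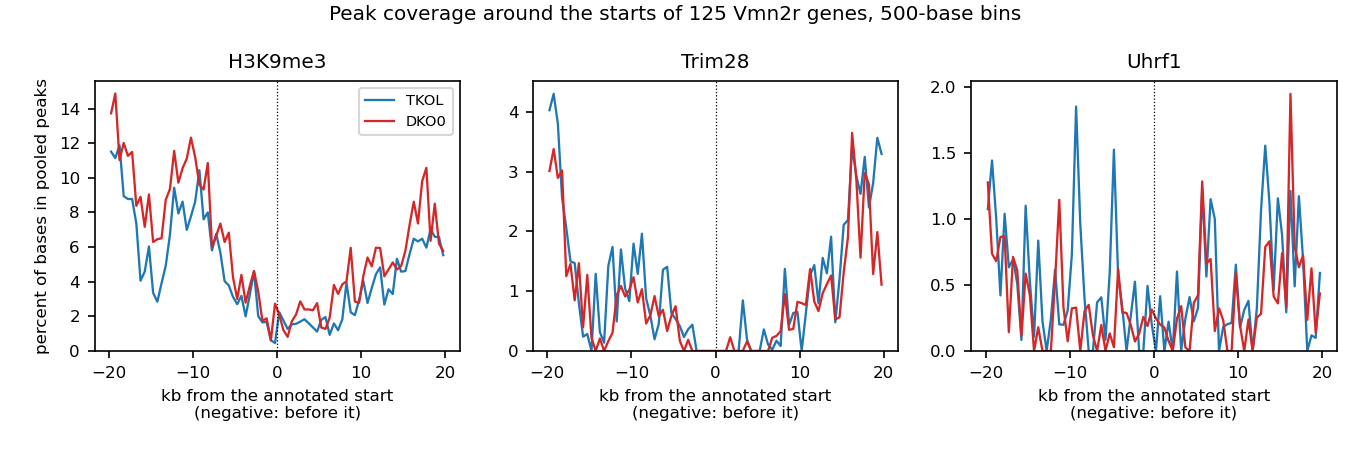
Percent of bases in pooled peaks (y axis, different scales) in 500-base bins from 20 kb before to 20 kb after the annotated start (x axis, kb) of the 125 Vmn2r genes, in TKOL (blue) and DKO0 (red). H3K9me3 falls towards the start in both lines, to 0.458% in the bin just before it in TKOL, Trim28 is at 0 around it, and Uhrf1 stays at or under 1.95% throughout.

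Peaks at the starts were few and weak. A pooled H3K9me3 peak lay within 1 kb of the start at 9 Vmn2r genes in TKOL (7.2%, against 3.02% of other genes) and at 11 in DKO0 (8.8% against 3.35%). Uhrf1 was found there at 4 genes (3.2%) in each line, while the share at other genes was 2.72% in TKOL and 9.30% in DKO0. In all there were 33 pooled peaks at the starts of 19 genes, with fold enrichments of 2.26 to 3.26 and −log10 q-values of 1.07 to 3.31. A replicate list of the same line held 14 of them and none was in both replicates, 14 held no unique word, and none overlapped a pooled peak of another mark in the same line. Between lines, the H3K9me3 peak at Vmn2r44 in DKO0 overlapped the Uhrf1 peak there in TKOL.

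The H3K9me3 peak at Vmn2r31, at 3.26-fold, and those in TKOL at Vmn2r33, Vmn2r38 and Vmn2r45 held no unique word, as did a Uhrf1 peak at Vmn2r44. Uhrf1 peaks at Vmn2r4 and Vmn2r6 in TKOL, at 3.17- and 3.12-fold, were 84.9% and 45.5% unique. On largely unique sequence, Vmn2r88 had 2 peaks in TKOL and 3 in DKO0 within 1 kb of its start, the strongest at 3.01-fold and 94.0% unique. The following 2 peaks are examples, chosen after values were seen, that lay on sequence more than 50% unique and were also seen in a replicate. Peaks at Vmn2r23, Vmn2r88 and Vmn2r89 met the same conditions and are not printed. Neither printed peak holds a CG, which would be in capitals, as was true of 19 of the 33 start peaks: 5 of 11 H3K9me3 peaks in TKOL and 7 of 14 in DKO0, and 3 of 4 and 4 of 4 Uhrf1 peaks. Without a CG were 45.7% of the 70 pooled Uhrf1 peaks in Vmn2r windows in DKO0 (26.9% elsewhere) and 41.5% of the 106 in TKOL (36.0% elsewhere). These peaks were short, with medians of 155 and 158 bases. By density they held 12.6 CGs per kb in DKO0 (19.5 elsewhere) and 8.73 in TKOL (11.5 elsewhere). Both values lay above the mean of 4.81 per kb of Vmn2r windows, so the peaks were not poorer in CG than their surroundings.
Vmn2r117, Uhrf1 in DKO0 (mm9, chr17:23616529-23616646, minus strand): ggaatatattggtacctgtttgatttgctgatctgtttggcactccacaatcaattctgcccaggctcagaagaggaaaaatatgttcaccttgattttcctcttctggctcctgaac
Vmn2r121, H3K9me3 in TKOL (mm9, chrX:121249978-121250144, minus strand): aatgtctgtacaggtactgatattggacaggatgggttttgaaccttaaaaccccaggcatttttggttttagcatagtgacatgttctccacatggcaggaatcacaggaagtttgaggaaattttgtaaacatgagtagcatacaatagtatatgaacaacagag

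Regions that gained methylation lay at 4 Vmn2r genes, too few to set their share apart from that of other genes. The study's list of differentially methylated regions (DMRs, between DKO0 at passage 15 and TKOL) has 1515 regions, of which 5 lay in the windows of 4 Vmn2r genes: 3.2% of the genes (95% Wilson interval 1.25 to 7.94%), against 2.12% of all genes and 1.29% of genes of like length, a ratio of 2.48 that was 5.23 for gene bodies alone. These DMRs took up 30 kb, or 0.542% of the windows, while all DMRs take up 0.168% of the genome. DMRs were sought in sliding windows of 1 kb and of 2 kb that held at least 10 CpGs, and a mean of 8.40% of the 1-kb stretches of a Vmn2r window held that many, against 50.6% at genes of like length (2-kb stretches were not counted). The median distance to the nearest DMR was 311 kb, and 30 genes had one within 100 kb. Neither value was computed for other genes, so they do not show whether Vmn2r genes lie nearer to DMRs or farther away.

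The 4 genes were Vmn2r35, Vmn2r38 and Vmn2r46 on chromosome 7 and Vmn2r22 on chromosome 6, all with under 50% unique words. Vmn2r35 held 20750 bases of DMR, a region of 19.25 kb in an intron and another of 1.5 kb after its end. The intronic region was covered by pooled H3K9me3 to 87.1% in TKOL and 78.9% in DKO0, and by Trim28 to 69.5% and 54.2%. The region of 6 kb in an intron of Vmn2r38 had 88.4% and 88.3% H3K9me3 and 87.2% and 66.0% Trim28, and that of 2.25 kb after the end of Vmn2r46 had 100% H3K9me3 in both lines and 100% and 83.3% Trim28. At Vmn2r22 a region of 1 kb in an intron, 3.40 kb from the start, was fully covered by H3K9me3 in both pooled lists but had no Trim28 in any list, and Uhrf1 over 22.9% in pooled DKO0. Vmn2r35, Vmn2r38 and Vmn2r46 were among the 5 genes with the most H3K9me3, and the other 2, Vmn2r-ps106 and Vmn2r44, had no DMR.

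Other gene families had smaller shares of genes with a pooled H3K9me3 peak. Pooled H3K9me3 peaks were found at 59.1% of the 203 Vmn1r genes (type 1 vomeronasal receptors) in TKOL and 58.6% in DKO0, at 39.9% and 36.3% of the 1113 Olfr genes (olfactory receptors), and at 52.3% and 56.9% of the 371 Zfp genes (zinc finger proteins). Their windows are shorter, with medians of 20.9, 21.0 and 34.7 kb, and by covered share the families were closer, with 3.79% and 4.52% for Vmn1r, 2.89% and 3.44% for Olfr, and 4.07% and 5.11% for Zfp, beside 3.78% and 4.90% for Vmn2r. The 55 Vmn2r genes of other types had an H3K9me3 peak at 58.2% and 60%. For Uhrf1 the order was not the same throughout. Its pooled peaks were found at 37.5% of Zfp genes in TKOL and 41.8% in DKO0, beside 46.4% and 29.6% of Vmn2r genes. DMRs were found at 1 Vmn1r gene, 18 Olfr genes and 8 Zfp genes.

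The partners of these receptors were marked unevenly. Major urinary proteins (Mup), which bind pheromones and are themselves detected by vomeronasal neurons, form a cluster on chromosome 4, and all 21 had a pooled H3K9me3 peak in both lines, 19 and 12 had Trim28, 16 and 17 had Uhrf1 (TKOL and DKO0), and 2 had a DMR. Coverage by H3K9me3 was highest at Mup9, at 48.9% and 63.1% of its window. Of the class I group of 10 genes, the H2-M genes displayed with type 2 receptors and their partner B2m, 3 had H3K9me3 in each line, 1 had Trim28, and 2 and 0 had Uhrf1. The 11 genes of the signalling chain had H3K9me3 at 1 and 3, Trim28 at 4 and Uhrf1 at 4 in each line, and Trpc2, the cation channel of vomeronasal neurons, and Omp, the olfactory marker protein, had no pooled peak. The 16 names listed for exocrine gland-secreting peptides matched no gene of this annotation. Counts for these lists are set against the same shares of all genes as above, and nothing particular to a list was tested.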

How the data were processed

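The report uses broad peak lists of H3K9me3, Trim28 and Uhrf1 (18 of single replicates, 6 pooled) from the 90 samples of the series. As the authors describe, reads were aligned to mm9 with BWA mem, duplicates were removed with GATK, and peaks were called with MACS2, for single replicates and again after replicates were merged on the read level, together with input samples. How reads that map to several places were treated for these lists is not given in the sources used here. The deposited peak lists give, per peak, its fold enrichment and its −log10 q-value, as the authors' caller wrote them, and no read counts, so depth is unknown. DMRs were taken as coordinates from the study's list, and their methylation values were not used. No columns of other samples were left over (0).

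Peaks overlapping a window by at least 1 base were counted, and covered bases were summed over merged windows (Python 3.11.15, numpy 2.4.6, scipy 1.17.1, pysam 0.24.0; figures with matplotlib 3.10.9). The covered bases of all 22367 windows were checked against bedtools 2.31.1, with 0 differences. The like-length value is the mean over all other protein_coding genes with a window within 10% of the Vmn2r gene's length, and has no test. Uniqueness is the share of 31-base words, read on either strand, found once in mm9. Lines were compared by exact permutation tests over replicate lists, with Benjamini-Hochberg adjustment over 12 comparisons. Genes were named by rule: the 5 with the highest mean pooled coverage per mark, those with DMRs, the 10 strongest at starts, those at 0, and receptors with known ligands or co-expression. Vmn2r91 and Vmn2r60, the peaks printed and the split at 50% unique words were chosen after values were seen. The members, the lists and the tests were chosen with earlier results of these data known.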

Additional observations from a re-analysis of the deposited data

How the results depend on the processing

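The pooled H3K9me3 ratio to genes of like length stayed above 1 in TKOL and DKO0 under every alternative run, between 1.63 and 2.69. In TKOL it was 1.70 with peaks of a −log10 q-value of at least 5 (18 genes left) and 2.51 when at least 500 bases of a window had to lie in peaks (long overlap below). In DKO0 it was 2.69 for bodies alone, 2.50 with long overlap and 1.63 for genes with a peak in both replicates. In WT, where the ratio for both replicates was 2.12, it turned to 0.949 at the q-value limit, on 1 gene, and was 1.26 with long overlap. For Trim28 it was 1.70 in TKOL and 2.25 in DKO0 with both replicates and 1.95 in DKO0 with long overlap. In WT (2.06) it was 0 at the q-value limit, 3.06 for bodies and 3.68 with long overlap. For Uhrf1 it was 1.62 in TKOL with long overlap. In DKO0 (0.728) it turned to 1.33 at the q-value limit, 1.12 with long overlap and 1.15 with both replicates, and in WT (0.433) it was 0 at the q-value limit. With only genes of at least 50% unique words, an alternative chosen after seeing the data, it was 1.98 for H3K9me3 in TKOL, 0.809 for Uhrf1 in TKOL, a change of direction, and 0.305 for Uhrf1 in DKO0. The ratio for DMRs, 2.48, stayed above 1 in all alternatives run and was 5.23 for bodies alone. It rests on 4 genes, and on 3 for bodies alone, so it is uncertain. Joining genes within 250 kb gave 30 clusters in place of 19. The cause of these changes was not tested.

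No difference between lines could pass a threshold, so a kept side says nothing about stability, and directions turned in 21 cases and held in 81. Differences are in percentage points. For H3K9me3, DKO0 minus TKOL in genes with a peak was -1.2 at the q-value limit, and WT minus TKOL was 4.4 with equal peak numbers per list. For Trim28, DKO0 minus TKOL in genes was 0.8 with equal numbers. WT minus TKOL was 0.00596 in covered share with equal numbers, and in genes -3.2 at the q-value limit and -0.8 with long overlap. For Uhrf1, DKO0 minus TKOL in covered share was 0.000578 at the q-value limit and 0.0337 with equal numbers, and in genes 0.4 with long overlap and 1.6 with equal numbers. WT minus TKOL was -0.00152 in covered share at the q-value limit and 3.6 in genes with long overlap. The covered share has no value with long overlap, since that rule counts genes.

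Leaving out 1 replicate list at a time gave, for DKO0 minus TKOL, -0.203 to 0.822 in covered share and -16.4 to 20.4 in genes for H3K9me3, -0.151 to 0.00393 and -11.6 to 0.4 for Trim28, and -0.0225 to 0.00558 and -5.6 to -4 for Uhrf1. For WT minus TKOL it gave -0.546 to -0.0478 and -26 to -2.8 for H3K9me3, -0.0923 to 0.0631 and -0.8 to 11.2 for Trim28, and 0.0256 to 0.0934 and -6.4 to -4.8 for Uhrf1. The H3K9me3 difference in genes between DKO0 and TKOL thus changed sign with the list left out. Replicate numbers are shared by the lines, but nothing says that they pair the samples. Deviations of equally numbered lists correlated at 0.764 over 22242 other genes for H3K9me3 in DKO0 and TKOL and at -0.0471 to 0.283 for the other pairs of lines. With the replicate block the 12 differences were the same, such as 0.310 points for H3K9me3 in DKO0 against TKOL (exact paired permutation p = 0.5, the smallest that 2 pairs allow), and no call changed.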

Other observations

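Intracisternal A particles (IAPs) are endogenous retroviruses that are bound by Trim28 and carry H3K9me3 in ESCs. Sequences like the study's IAP LTR amplicon of 113 bases, with at least 50% of its 16-base words in place, were found at 1915 places in mm9, and 4 of these lay in Vmn2r windows: 2 at Vmn2r46 and 2 at Vmn2r60. Vmn2r46 had the highest H3K9me3 fold enrichment in the pooled DKO0 list (15.9), and Vmn2r60 in the pooled TKOL list (13.5). Vmn2r38, without such a copy, reached 12.3 in TKOL and 11.9 in DKO0, above Vmn2r60 in the latter. All 4 copies had a pooled peak of each of the 3 marks within 500 bases in both lines, as did 99.3% and 99.4% of all copies for H3K9me3, 96.5% and 98.3% for Trim28, and 65.0% and 53.5% for Uhrf1 (TKOL and DKO0). No copy in a Vmn2r window lay in a DMR, and 2.77% of all copies did. The DMR at Vmn2r46 lay between the 2 copies there, and a link between copies and DMR was not tested. The study's other IAP amplicon, within the internal region IAPEz, matched 496 places, 0 of them in Vmn2r windows, and 43.8% of these lay in a DMR. The density of copies, 0.723 per Mb of Vmn2r window, was close to the 0.748 per Mb of the genome.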
